A study of Mus musculus with 128 samples.

Results

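The comparison covers the step from the unfertilized egg to the 2-cell embryo in wildtype mice, across all genes. Its members are the 16 wildtype MII oocytes, which are mature eggs arrested in the second meiotic metaphase, and the 16 wildtype 2-cell embryos, chosen by their labels as 32 of the 128 libraries of the study. The study sequenced poly(A) RNA of single C57BL/6 oocytes and embryos, wildtype or knockout for the histone demethylase Kdm4a, at MII and at the 2-, 4- and 8-cell stages, with SMART-Seq amplification. The genotype label of both groups was WT (m+/p-). The oocytes were unfertilized. The 2-cell embryos were collected at 1.5 days post fertilization, after wildtype oocytes had been fertilized with Kdm4a knockout sperm, so they carried the maternal copy of Kdm4a alone. Every oocyte and embryo had its zona removed in acid and was lysed in a tube of its own. Mothers and collection days were not given in the labels, and a difference in collection or library preparation between the stages cannot be told apart from the stage. P-values measure the spread between single oocytes and embryos.

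A fully grown oocyte does not transcribe, and it lives on messenger RNA that it stored while growing. After meiotic maturation and fertilization these maternal messages lose their poly(A) tails and are degraded, while others stay stored and are translated later. In the mouse the embryo's own genome is switched on in a minor wave in the zygote and in a major wave in the 2-cell embryo, and a set of genes and retroelement-linked transcripts is expressed at that stage and then silenced again.

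The 32 libraries held between 1756614 and 3766643 counts over 41300 genes, with medians of 3177289 in MII oocytes and 1920463 in 2-cell embryos. Levels are counts per 1000000 of the library total (CPM), given throughout as the lowest, the median and the highest of the 16 libraries of a stage unless stated otherwise. A count of 0 allows up to 0.796 to 1.41 CPM in an MII library and up to 1.03 to 1.71 CPM in a 2-cell library, from counting error alone. Fold changes are 2-cell over MII on the log2 scale, from edgeR's quasi-likelihood test with library factors (TMM) that set the bulk of genes level. A gene is called, or said to rise or fall, where the Benjamini-Hochberg adjusted p over all genes tested was under 0.05 and the log2 fold change at least 1 in size, and a number in parentheses after a gene is its log2 fold change. Values are relative to all poly(A) RNA of a library. A change in the amount of RNA per embryo is therefore not seen, and fewer transcripts cannot be told apart from shorter poly(A) tails where tail length affects capture.

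Annotated promoters of some genes with large changes are shown first. Where transcripts start in these oocytes and embryos was not measured. They run from 250 bases before to 50 bases after the RefSeq start site on GRCm38.p6, written 5′ to 3′ on the strand of the gene, and capitals mark matches, on either strand, to the NF-Y box CCAAT, the ETS site CCGGAAG, the GC box GGGCGG, the TATA box TATAAA, the cAMP response element TGACGTCA, the Nr5a2 site TCAAGGNCA and the Dux motif. The first 4 belong to genes that rose and the other 2 to genes that fell. No promoter is shown for Trim43b and Pramef25, among the largest rises, or for Plat and Slc35b3, among the largest falls.
Zfp352, chr4:90218570-90218869, plus strand: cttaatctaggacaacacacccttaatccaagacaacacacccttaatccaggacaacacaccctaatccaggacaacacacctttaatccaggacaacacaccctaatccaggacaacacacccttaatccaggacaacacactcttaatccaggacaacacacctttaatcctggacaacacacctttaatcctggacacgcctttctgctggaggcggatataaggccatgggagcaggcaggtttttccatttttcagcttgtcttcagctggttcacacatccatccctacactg
Ubtfl1, chr9:18404168-18404467, plus strand: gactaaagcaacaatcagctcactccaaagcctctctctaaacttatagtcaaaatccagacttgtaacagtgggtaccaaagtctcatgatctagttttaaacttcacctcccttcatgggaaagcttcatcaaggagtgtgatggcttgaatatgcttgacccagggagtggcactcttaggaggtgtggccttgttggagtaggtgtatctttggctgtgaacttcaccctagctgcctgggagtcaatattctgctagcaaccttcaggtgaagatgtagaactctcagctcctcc
Trim43a, chr9:88580641-88580940, plus strand: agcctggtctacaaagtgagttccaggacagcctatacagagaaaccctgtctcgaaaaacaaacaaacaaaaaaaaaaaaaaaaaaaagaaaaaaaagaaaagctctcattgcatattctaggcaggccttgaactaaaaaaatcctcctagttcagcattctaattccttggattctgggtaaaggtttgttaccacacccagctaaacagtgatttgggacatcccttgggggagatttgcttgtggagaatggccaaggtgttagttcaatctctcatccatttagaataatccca
Zscan4f, chr7:11397665-11397964, plus strand: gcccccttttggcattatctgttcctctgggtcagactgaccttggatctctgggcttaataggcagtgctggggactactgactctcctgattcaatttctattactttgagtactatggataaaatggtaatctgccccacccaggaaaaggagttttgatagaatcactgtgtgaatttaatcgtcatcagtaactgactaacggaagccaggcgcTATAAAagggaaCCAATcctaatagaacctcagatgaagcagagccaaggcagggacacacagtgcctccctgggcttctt
Bub1b, chr2:118597961-118598260, plus strand: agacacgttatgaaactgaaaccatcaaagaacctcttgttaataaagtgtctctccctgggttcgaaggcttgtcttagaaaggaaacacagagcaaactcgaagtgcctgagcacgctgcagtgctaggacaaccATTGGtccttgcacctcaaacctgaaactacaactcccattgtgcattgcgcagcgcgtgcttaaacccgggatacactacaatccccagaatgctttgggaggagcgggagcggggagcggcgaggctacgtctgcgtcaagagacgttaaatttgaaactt
Ormdl1, chr1:53296845-53297144, plus strand: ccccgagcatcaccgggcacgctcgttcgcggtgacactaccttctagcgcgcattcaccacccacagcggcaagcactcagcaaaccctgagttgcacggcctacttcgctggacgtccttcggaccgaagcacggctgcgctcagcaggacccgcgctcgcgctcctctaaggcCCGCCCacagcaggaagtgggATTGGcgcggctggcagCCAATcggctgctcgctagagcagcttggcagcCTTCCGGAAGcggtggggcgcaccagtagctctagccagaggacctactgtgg
The 4 promoters of genes that rose held few CpG dinucleotides, with observed over expected ratios of 0.142 in Zfp352, 0 in Ubtfl1, 0.0878 in Trim43a and 0.186 in Zscan4f. The ratio was 0.811 in Bub1b and 0.872 in Ormdl1. In Leprot and Zfp866, other genes with large falls, it was 0.738 and 0.600, and its median over the 27025 promoters of the RefSeq table was 0.389. The 4 promoters shown are not typical of the genes that rose: the median ratio was 0.764 over the 1450 of them with an entry, 0.718 over those with a log2 fold change of at least 3, and 0.804 over the 1227 with an entry that fell. Zscan4f held TATAAA at position -31 from the start site and CCAAT at position -19; TATAAA was present in 14.2% and CCAAT in 37.9% of all promoters. Bub1b held CCAAT once, on the other strand. Ormdl1 held CCAAT at -36 and, on the other strand, at -53, GGGCGG on the other strand at -74, and CCGGAAG on both strands in 2 overlapping matches at the start site. GGGCGG was present in 35.9% and CCGGAAG in 9.12% of all promoters. Zfp352, Ubtfl1 and Trim43a matched none of the motifs. The promoter of Zfp352 is built of a repeat unit, and the letters GGATTA, searched after the promoters had been read and found there as TAATCC, occurred 9 times. At least 1 match stood in 7.16% of all promoters, at least 3 in 0.0296%, and 9 in that of Zfp352 alone of the 27025. A table entry existed for 60.2% of the genes that rose and 71.1% of those that fell, too few for a comparison of promoter features between the sets.

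More genes rose than fell from the egg to the 2-cell embryo. Of 8679 genes tested, 2409 (27.8%) were higher and 1726 (19.9%) were lower in 2-cell embryos, so 58.3% of the called genes were higher. The split depends on the scaling: with library totals alone 3039 genes were higher and 1259 lower (70.7% higher), and with upper-quartile factors 2736 and 1442 (65.5% higher). These scalings moved the median log2 fold change of the tested genes up by 0.34 and 0.19 from its value of 0.12. The split also depends on the filter on low counts. With at least 10 CPM in 16 libraries 1399 genes were higher and 1217 lower (53.5% higher), and without a filter 11332 and 2781 (80.3% higher). By adjusted p alone 3658 genes (42.1%) were higher and 3088 (35.6%) lower. Log2 fold changes of at least 3 in size were found in 684 genes that rose and 203 that fell. All 16 embryos lay above all 16 oocytes for 1439 of the 2409 genes that rose, or 59.7%, and all lay below for 742 of the 1726 that fell, or 43.0%. Over all tested genes such separation was found in 18.5% upward and 8.61% downward. Clone or provisional names were carried by 555 of the genes that rose and 158 of those that fell.

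**Figure D1:**
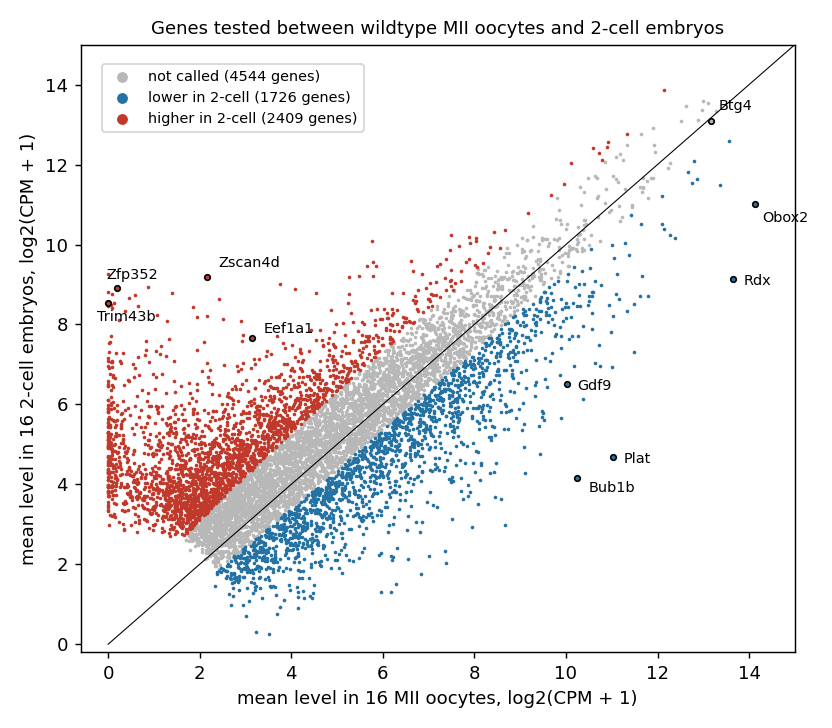
Mean level of each tested gene in the 16 MII oocytes (horizontal axis) and the 16 2-cell embryos (vertical axis), both as log2(CPM + 1); colours give the 2409 higher, 1726 lower and 4544 uncalled genes, and the line marks equal levels. Plat, Bub1b, Rdx and Obox2 lie far below the line, while Zfp352 and Trim43b start near 0 on the horizontal axis.

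Among genes whose mean reached 100 CPM in the egg, the largest falls were those of Plat and Bub1b. Plat encodes tissue-type plasminogen activator, a secreted protease whose message is a classical example of a stored maternal mRNA. It stood at 1180.1, 2005 and 3163 CPM in MII oocytes and at 14.7, 22.1 and 47.7 CPM in 2-cell embryos (log2 fold change -6.74, SE 0.17, edgeR adjusted p = 9.19e-30). Bub1b, which encodes the spindle checkpoint kinase BubR1, went from 997, 1183 and 1573 to 5.09, 19.3 and 28.1 CPM (log2 fold change -6.49, SE 0.16, edgeR adjusted p = 2.7e-30). For both genes the 2 stages lay far apart, without overlap. Rdx encodes radixin, a linker of the actin cortex to the membrane, and it took one of the largest shares of counts in the egg. It fell from 11103, 12760 and 14568 to 439, 555 and 697 CPM (log2 fold change -4.87, SE 0.08, edgeR adjusted p = 1.19e-36), again with every embryo below every oocyte. Txnip, an arrestin-like regulator of glucose uptake and thioredoxin, fell from 297, 555 and 710.4 to 6.78, 17.9 and 35.8 CPM (log2 fold change -5.26, SE 0.16, edgeR adjusted p = 1.2e-27). Its groups did not overlap either.

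The other genes with the largest falls among those with at least 100 CPM in the egg had log2 fold changes from -6.07 to -4.87, and no embryo reached an oocyte's level for any of them. Npc1, which moves cholesterol out of late endosomes (-5.38), Elovl5, a fatty acid elongase (-5.23), Ormdl1, a brake on sphingolipid synthesis (-5.47), and Saraf, a regulator of store-operated calcium entry (-5.52), were among them. Slc35b3 (-6.07), a transporter of the sulphate donor into the Golgi, Leprot (-5.90), the zinc-finger gene Zfp866 (-5.65), the ubiquitin ligase gene March7 (-5.08) and Serpini1 (-4.87), a protease inhibitor that acts on the product of Plat, completed the set.

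Genes that define the oocyte fell in part. Of 12 tested oocyte-secreted and zona genes 5 fell (41.7%) and 0 rose, against 19.9% and 27.8% of all genes tested. With upper-quartile factors, and also with library totals alone, 4 fell and 0 rose. The median log2 fold change was -0.84 against 0.12 over all genes tested. Gdf9, the growth factor by which the oocyte acts on its cumulus cells, stood at 583, 1091 and 1318 CPM in MII oocytes and at 58.8, 81.8 and 137 CPM in embryos (log2 fold change -3.86, SE 0.13, edgeR adjusted p = 5.2e-26). The stages did not overlap. Bmp15, its partner, was not called: its mean was 3312 CPM in oocytes and 2707 CPM in embryos (log2 fold change -0.62). Oosp1 went from 5877, 6771 and 9599.6 to 2167, 2845 and 4542 CPM and fell by 1.57 on the log2 scale, without overlap. Astl, the cortical granule protease that alters the zona after fertilization, fell as well (-3.88), as did the zona glycoprotein gene Zp3 (-1.44) and the receptor Kit (-1.19), whose call ended with upper-quartile factors (-0.99) and library totals (-0.85). Zp1 and Zp2 were not called at -0.90 and -0.66. The list took 1.58% ± 0.139 (SD, n = 16) of counts in oocytes and 0.953% ± 0.115 (SD, n = 16) in embryos. The ranges of 1.40 to 1.87% and 0.757 to 1.21% did not overlap, and the adjusted permutation p was 1.2e-05 over 6 measures (raw p = 1e-05, two-sided, the smallest that 100000 resamples can give).

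Of 12 tested genes for sperm binding and egg activation, 4 fell (33.3%) and 2 rose (16.7%), against 19.9% and 27.8% of all genes tested. Rgs2, which restrains the calcium response of the egg, stood at 2562, 3171 and 3461 CPM in oocytes and at 139, 399.9 and 1011 CPM in embryos (log2 fold change -3.24, SE 0.22, edgeR adjusted p = 5.01e-16). The stages did not overlap, though the embryos spread over a wide range. The calcium pump genes Atp2b1 (-3.64) and Atp2a2 (-1.02) and the calcium channel gene Itpr2 (-1.86) fell, though the call of Atp2a2 ended with each other scaling (-0.999 with RLE factors, -0.82 with upper-quartile factors and -0.67 with library totals). Cd9 (1.90), an egg membrane tetraspanin needed for gamete fusion, and the calcineurin subunit gene Ppp3cb (1.51) rose.

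Of 40 tested meiotic arrest and M-phase genes 13 fell (32.5%) and 8 rose (20%), against 19.9% and 27.8% of all genes tested, and with library totals alone 9 fell and 10 rose. Mos, the kinase that holds the egg in metaphase through the MAP kinase pathway, had a mean of 71 CPM in oocytes and 1.48 CPM in embryos (log2 fold change -5.86, edgeR adjusted p = 6.04e-25). Mapk3, a kinase gene of that pathway, rose from 4.1, 11.2 and 15.1 to 24.7, 45.4 and 94.2 CPM (1.86), without overlap. Fbxo5 (-2.05) and Fbxo43 (-1.08), which encode inhibitors of the anaphase-promoting complex, and Mastl (-1.46), the Greatwall kinase, fell. Ccnb1, cyclin B1, fell by 1.04 on the log2 scale from 5161, 7535 and 8389 to 1663, 4254 and 6531 CPM, and its stages overlapped. The calls of Ccnb1 and Fbxo43 ended with upper-quartile factors (-0.84 and -0.88) and with library totals (-0.71 and -0.74). Cdc25c, a phosphatase that activates CDK1, rose from 0, 0.6 and 3 to 4.36, 46.6 and 148 CPM (log2 fold change 5.71, SE 0.41, edgeR adjusted p = 2.89e-15), with all embryos above all oocytes. Wee1 (4.38), Cdk2 (3.13), Cdc25b (2.14), Ensa (2.00) and Cks1b (1.41) were higher too, while the oocyte kinase gene Wee2 was not called (-0.15). Cdc25a fell (-2.58).

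Several messages that took large shares of counts in the egg still did so at the 2-cell stage. Btg4, the adaptor that brings the CCR4-NOT deadenylase to maternal mRNAs, stood at 7162, 9239 and 10912 CPM in oocytes and at 6168, 8834 and 10506 CPM in embryos. The stages overlapped, and the log2 fold change of -0.43 (SE 0.09) was under the fold threshold (edgeR adjusted p = 2.56e-05). Spin1, a reader of histone methylation, stood at 6977, 8015 and 8955 CPM in oocytes and at 8303, 10619 and 12788 CPM in embryos (0.05). The levels of the oocyte gene Oog3 were 8483, 10269.6 and 11874 CPM and 6786, 10643 and 12809.5 CPM, in the same order (-0.29), and those of Mphosph6 had medians of 8463 and 11719 CPM (0.09). None of the 3 was called, and their stages overlapped. By 4 cells the medians of Spin1, Oog3 and Mphosph6 were 80.2, 49.4 and 263 CPM, and that of Btg4 was 16.5 CPM.

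The subcortical maternal complex, a protein assembly under the egg membrane that embryos need to pass the early cleavages, and the Nlrp genes of the oocyte gave 5 falling and 0 rising of 19 tested. The share that fell was 26.3%, while 19.9% of all genes tested fell and 27.8% rose. With library totals alone 5 fell and 2 rose. Nlrp14 fell from 2483, 4519.8 and 6433 to 538, 1294 and 2200.4 CPM (log2 fold change -2.08, SE 0.19, edgeR adjusted p = 2e-12), without overlap. Nlrp2 (-2.19), Nlrp4b (-1.87), Tle6 (-1.67) and Padi6 (-1.57) fell as well. Other members of the complex, Nlrp5 (-0.57), Ooep (0.60) and Khdc3 (-0.65), were not called. Neither was Zbed3 at 0.51, although all 16 embryos (8993, 10816 and 14131 CPM) lay above all 16 oocytes (4214, 6165 and 8411 CPM).

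Among genes that store maternal messages and control their translation, 7 of 24 tested fell (29.2%) and 2 rose (8.33%). Of all genes tested 19.9% fell and 27.8% rose. With library totals alone 7 of the list fell and 5 rose. Zar1, which keeps maternal mRNAs in store near mitochondria, fell from 123, 201 and 322 to 10.8, 33.9 and 60.5 CPM (log2 fold change -2.79, SE 0.17, edgeR adjusted p = 4.54e-18). The groups did not overlap. Dazl, a germ cell translational activator, fell by 1.47 on the log2 scale from 2505, 3327 and 3979.96 to 855, 1487 and 2124 CPM, and Cpeb1, which binds the cytoplasmic polyadenylation element, fell as well (-2.52). Igf2bp2 (-3.31), Pabpn1l (-3.19), Lsm14b (-1.92) and the poly(A) polymerase gene Papola (-2.33) made up the rest. Ybx2 (3.09), an RNA-packaging protein of germ cells, and Eif4e1b (2.57), an oocyte cap-binding protein, rose from low levels, with medians of 3 and 6.52 CPM in oocytes and 32 and 54.7 CPM in embryos.

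The element that Cpeb1 is known to bind is shown here by its letters in 3′ untranslated regions of 4 genes that fell and of Btg4, with TTTTAT in capitals within 30 bases of mm10, in the GENCODE M21 transcripts.
Plat, chr8:22782508-22782537, plus strand: acaagaatgtgtTTTTATagttacacaggg
Bub1b, chr2:118641553-118641582, plus strand: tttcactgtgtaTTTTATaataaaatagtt
Gdf9, chr11:53437854-53437883, plus strand: agagtgctgtggTTTTATgtgacggaagaa
Ccnb1, chr13:100779069-100779098, minus strand: tatatgggttcaTTTTATcaacagtattcc
Btg4, chr9:51119797-51119826, plus strand: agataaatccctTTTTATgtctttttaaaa
Only genes with a match are shown. Slc35b3, Zfp866, Saraf and March7, among the largest falls, had 0 matches, as had Zar1. The matches shown lay 325 (Plat), 27 (Bub1b), 39 (Gdf9), 437 (Ccnb1) and 67 (Btg4) bases from the 3′ end. TTTTAT stood in 70.2% of the 3′ untranslated regions of genes that fell, in 67.9% of those not called and in 64.1% of all tested genes that had one. The densities were 1.31, 1.23 and 1.19 matches per kb, and the median lengths of the regions were 1165 bases for genes that fell and 1198 for those not called. TATTTAT, the core of AU-rich elements, stood in 35.0%, 34.2% and 31.9%, and TGTANATA, the motif of Pumilio proteins, in 31.0%, 31.5% and 29.1%. Among genes that rose the shares were lower, at 50.5%, 24.4% and 22.4% in the same order of motifs, over 1753 regions with a median length of 860 bases and 0.959 TTTTAT matches per kb. Only 72.8% of the genes that rose had an annotated region, against 88.2% of those that fell, too few for a comparison between these sets.

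Of 46 tested genes of deadenylation, uridylation and decay 12 fell (26.1%) and 10 rose (21.7%), against 19.9% and 27.8% of all genes tested, and with library totals alone 9 fell and 12 rose. Cnot1, the scaffold of the CCR4-NOT complex, rose from 13.6, 20.5 and 30.3 to 72.3, 108 and 182 CPM (log2 fold change 2.11, SE 0.14, edgeR adjusted p = 4.57e-17), with no overlap. Its catalytic subunit genes Cnot7 (-0.51), Cnot6l (-0.55) and Cnot8 (-0.56) were not called, and neither was Cnot6, at 0.56 in the other direction. Of the terminal uridylyltransferases, Zcchc11 rose (4.31) and Zcchc6 fell (-2.31). For decapping, Dcp2, the catalytic subunit, rose from 56, 79.4 and 108 to 250.3, 322 and 463 CPM (log2 fold change 1.72, SE 0.09, edgeR adjusted p = 4.61e-20). Its activator gene Dcp1a fell from 209.7, 280.2 and 358 to 24.5, 51.9 and 117 CPM (log2 fold change -2.71, SE 0.14, edgeR adjusted p = 1.66e-20). In neither gene did the stages overlap. The nuclear exonuclease gene Xrn2 (-2.15) fell, and the exosome nuclease gene Dis3 (2.12) and the germ line ribonuclease gene Marf1 (2.05) rose.

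**Figure D2:**
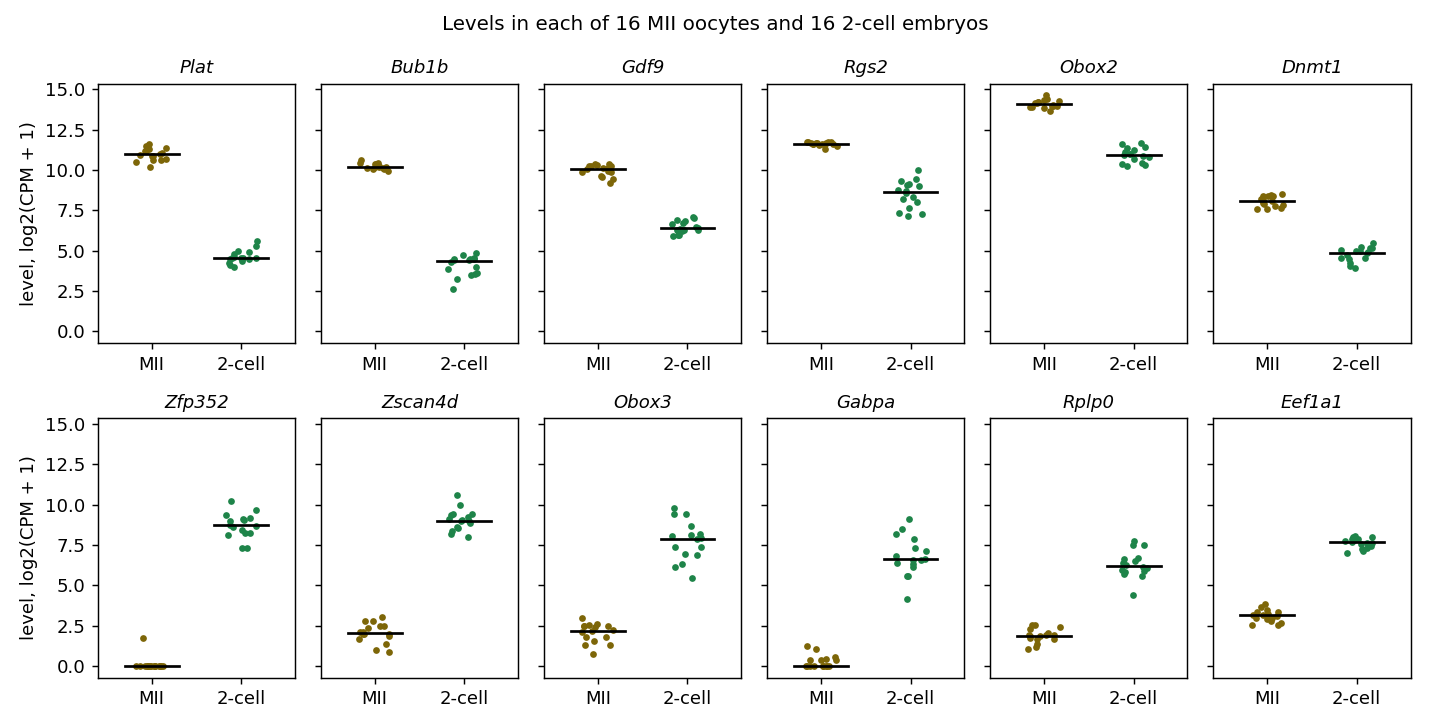
Level of 12 genes in each library as log2(CPM + 1), with a line at the median of 16; the upper row holds genes that fell and the lower row genes that rose from MII oocytes (left in each panel) to 2-cell embryos (right). The stages do not overlap in any of the 12 panels.

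Genes known for a burst of expression in the 2-cell embryo rose. Of 25 tested members of the list of such genes, called transient 2-cell genes here, 24 rose (96%) and 0 fell. Of all genes tested 27.8% rose and 19.9% fell. The median log2 fold change of the list was 6.76. The list was drawn up from knowledge of this stage, and in a filter on low counts such genes enter mostly through the embryos. Its name does not hold for every member here. Medians at 2, 4 and 8 cells were 113, 222 and 185 CPM for Ubtfl1 and 451, 1409.5 and 1292 CPM for Sp110. Zfp352, a zinc-finger gene linked to retroelement transcripts, stood at 0, 0 and 2.35 CPM in oocytes, where 15 of 16 libraries had no count, and at 155, 426 and 1228 CPM in embryos (log2 fold change 11.37, SE 0.43, edgeR adjusted p = 3.7e-23). Zscan4d, a member of the Zscan4 cluster that acts at telomeres, stood at 0.8, 3.13 and 7.23 CPM in oocytes and at 259.7, 519 and 1565 CPM in embryos (log2 fold change 7.05, SE 0.28, edgeR adjusted p = 5.38e-23). Both genes separated the stages without overlap. Trim43b, a tripartite-motif gene outside the list, had no count in any oocyte and stood at 27.6, 349 and 836 CPM in embryos. Its pooled level in embryos was at least 6246-fold higher than the limit of 3 counts over all oocytes together. Ubtfl1, a relative of the nucleolar factor Ubtf, had 1 count over all oocytes and 63.6, 113 and 247 CPM in embryos, and the ratio of the pooled levels was 6139 with a 95% interval of 1101 to 242551 from counting error alone. Pramef25 had 2 counts over all oocytes, and its ratio was 5296 with an interval of 1465 to 43736. For all 3 genes every embryo lay above every oocyte.

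Other members of the list rose as well. Zscan4c (7.71), Zscan4f (9.32), Usp17lc (8.91), a ubiquitin-protease relative, and Tdpoz5 (7.93) rose. Tcstv3 rose by less (2.69) from a mean of 38.4 CPM in oocytes, and Tcstv1 was the one tested member not called (0.96). Members of the Zscan4, Usp17l, Tdpoz, Pramef and Trim43 families are near-identical copies, and 68.8 to 100% of the non-zero values of those named here were not whole, so that the split of reads between copies is uncertain. The list took 0.0407% ± 0.00693 (SD, n = 16) of counts in oocytes and 0.461% ± 0.181 (SD, n = 16) in embryos. The highest oocyte, at 0.0554%, lay below the lowest embryo, at 0.222% (adjusted permutation p = 1.2e-05 over 6 measures, with the raw p at its smallest possible value). The list was chosen for high levels at this stage and with earlier results of these data known, so this p is no independent support for the rise.

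The other genes with the largest rises included Gcsh, Clp1 and Ctsl. Gcsh, the carrier protein of the glycine cleavage system, stood at 0, 0.943 and 4.4 CPM in oocytes and 64.4, 234 and 815 CPM in embryos (log2 fold change 7.70, SE 0.41, edgeR adjusted p = 1.05e-18). Clp1, an RNA kinase of pre-mRNA 3′ processing, went from 0, 0.314 and 1.8 to 57.7, 110.3 and 294 CPM (log2 fold change 7.59, SE 0.33, edgeR adjusted p = 3.85e-22). Ctsl, the lysosomal protease cathepsin L, went from 0, 0.502 and 3.05 to 29.1, 117 and 549 CPM (log2 fold change 7.53, SE 0.46, edgeR adjusted p = 5.19e-17). None of the 3 overlapped between the stages.

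Among transcription factors named in studies of genome activation, 12 of 26 tested rose (46.2%) and 5 fell (19.2%), with a median log2 fold change of 0.95. Of all genes tested 27.8% rose and 19.9% fell. Gabpa, an ETS-family factor that binds the letters CCGGAAG, was near the floor in oocytes at 0, 0 and 1.32 CPM and stood at 16.5, 97 and 555 CPM in embryos (log2 fold change 8.68, SE 0.54, edgeR adjusted p = 1.17e-16). The stages did not overlap, and the embryos differed widely among themselves. Dppa2 rose from 13.9, 22.4 and 29.9 to 106, 187 and 310.3 CPM (2.77) and its partner Dppa4 rose by more (5.30); both are small chromatin proteins of early embryos. Yy1 (4.53), Zfx (4.29), Zfp281 (2.06), the nuclear receptor gene Nr5a2 (1.62), Sp3 (1.54) and Atf4 (1.42) rose as well. The subunits of NF-Y, which binds CCAAT, did not: Nfyb fell (-1.81), Nfya fell by 1.03 on the log2 scale, and Nfyc was not called (0.31). The call of Nfya ended with upper-quartile factors (-0.84) and library totals (-0.71), and in the knockout libraries it was not called (-0.32, edgeR adjusted p = 0.119). Klf17, an abundant factor in the egg, fell from 307, 739 and 1221 to 156, 360.3 and 701 CPM (-1.39), with overlap.

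Within the homeobox genes of the Obox family, members fell and rose. Obox2 stood at 12972, 17556 and 25369 CPM in oocytes and at 1198, 1973 and 3289.8 CPM in embryos (log2 fold change -3.45, SE 0.14, edgeR adjusted p = 7.38e-23). Obox1 went from 7105, 11500.5 and 17053 to 3437, 6325 and 8613 CPM (log2 fold change -1.29, SE 0.14, edgeR adjusted p = 1.17e-10). Obox2 separated the stages, and Obox1 overlapped and was not called with library totals (-0.96). Obox5 and Obox7 were not called (0.24 and -0.50). Obox3, in contrast, went from 0.637, 3.54 and 6.93 to 43.6, 235 and 905 CPM (log2 fold change 6.08, SE 0.40, edgeR adjusted p = 5.61e-16). Obox6 went from 0, 0.606 and 1.86 to 19.9, 124 and 384 CPM (log2 fold change 7.22, SE 0.36, edgeR adjusted p = 4.78e-20). Neither overlapped between stages. Obox8 also rose (7.23). Of the called Obox genes all but Obox8 had at least 93.5% of their non-zero values not whole, so the split of reads between copies is uncertain here too. Of the oocyte factors outside the family, Nobox (2.17) and Lhx8 (1.80) rose and Sohlh2 fell (-1.46); Nobox was listed at a median of 0 by the 4-cell stage.

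Of 48 tested genes of the RNA polymerase II machinery 10 rose and 10 fell (20.8% each), against 27.8% and 19.9% of all genes tested, with a median log2 fold change of -0.02; with library totals alone 11 rose and 8 fell. Supt4a, an elongation factor, rose from 1.1, 2.87 and 8.23 to 59.2, 93.8 and 307 CPM (log2 fold change 4.86, SE 0.27, edgeR adjusted p = 4.71e-19), and the polymerase subunit genes Polr2c (1.29) and Polr2g (1.32) rose. The subunit gene Polr2d fell from 166, 241 and 371 to 31.5, 50.5 and 98.5 CPM (log2 fold change -2.60, SE 0.14, edgeR adjusted p = 3.74e-19), and the initiation factor gene Gtf2b fell (-1.58). Supt4a and Polr2d each separated the stages.

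Most tested genes for cytosolic ribosomal proteins rose, 47 of 57 (82.5%) with 1 falling (1.75%), against 27.8% and 19.9% of all genes tested. Their median log2 fold change was 2.14. Of the 79 genes of the list 22 were not tested, and members near the floor in oocytes could pass the filter on low counts through the embryos alone. Rplp0, of the ribosomal stalk, went from 1.08, 2.67 and 4.82 to 19.9, 71.9 and 214 CPM (log2 fold change 4.66, SE 0.27, edgeR adjusted p = 1.63e-18). Rpl4, of the large subunit, went from 8.6, 16.4 and 27.8 to 30, 113 and 195 CPM (log2 fold change 2.38, SE 0.18, edgeR adjusted p = 2.84e-15). Neither overlapped between stages. All the genes together took 0.0636% ± 0.0127 (SD, n = 16) of counts in oocytes and 0.231% ± 0.0781 (SD, n = 16) in embryos, with ranges of 0.0415 to 0.0963% and 0.126 to 0.387% and an adjusted permutation p of 1.2e-05. Many of these genes have processed pseudogenes that can share their reads.

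Of 35 tested translation factors 13 rose (37.1%) and 7 fell (20%), against 27.8% and 19.9% of all genes tested. With library totals alone 17 rose and 5 fell. Eef1a1, the main elongation factor, went from 4.71, 7.77 and 13.1 to 128, 204 and 261 CPM (log2 fold change 4.31, SE 0.13, edgeR adjusted p = 2.56e-27). Eif4e, the general cap-binding protein, went from 451, 572 and 647 to 1247, 1798 and 1970.3 CPM (log2 fold change 1.26, SE 0.08, edgeR adjusted p = 9.11e-18). Both separated the stages. Eif4e3, a relative of Eif4e, fell (-1.90), as did the initiation factor genes Eif3e from 334, 385 and 461 to 17, 55.8 and 76.5 CPM (log2 fold change -3.16, SE 0.13, edgeR adjusted p = 1.07e-23) and Eif5b (-1.95).

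Of 53 tested genes of ribosome biogenesis 13 rose (24.5%) and 14 fell (26.4%), against 27.8% and 19.9% of all genes tested, and with library totals alone 14 rose and 10 fell. Polr1d (1.91), a subunit shared by polymerases I and III, and Nop10 (1.90) rose, while Ncl (-1.64), which encodes nucleolin, and the pseudouridine synthase gene Dkc1 (-1.97) fell. The spliceosome list had 10 rising (17.9%) and 13 falling (23.2%) of 56, but 12 and 8 with upper-quartile factors and 12 and 6 with library totals. Srsf1 (2.25) and Bud31 (2.80) rose, and Hnrnpk (-2.17) and Sf3b1 (-1.87) fell.

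Of 37 tested heat shock and co-chaperone genes, 8 rose (21.6%) and 9 fell (24.3%), against 27.8% and 19.9% of all genes tested, and with library totals alone 11 rose and 8 fell. Hsp90aa1, the inducible cytosolic HSP90, stood at 2613, 3573 and 4153 CPM in oocytes and at 259, 430.1 and 534 CPM in embryos (log2 fold change -3.42, SE 0.10, edgeR adjusted p = 2.54e-28), without overlap. Dnajc3 fell (-4.54) and Dnajb9 rose (4.60), both encoding co-chaperones of the endoplasmic reticulum. Within the chaperonin that folds actin and tubulin, Cct6a (5.15) and Cct3 (1.77) rose and Cct8 fell (-1.78). The proteasome list had 8 rising and 8 falling of 37 (21.6% each), but 13 and 6 with library totals alone. Psma2 (-2.13), Psma4 (-2.16) and Psmd1 (-2.59) were among those lower, and Psmd6 (2.09), Pomp (1.40) and Psmb2 (1.28) among those higher.

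Transcripts of energy metabolism were mostly higher where they were called. All 13 mitochondrially encoded genes were higher by adjusted p alone, against 42.1% of all genes tested. Of the 13, 8 (61.5%) also passed the fold threshold, against 27.8% of all genes tested, and the median log2 fold change was 1.30. mt-Cytb, of respiratory complex III, went from 3095, 4180.04 and 6328 to 9436, 12817 and 26699 CPM (log2 fold change 1.38, SE 0.13, edgeR adjusted p = 1.95e-12), without overlap. The 13 genes took 1.18% ± 0.221 (SD, n = 16) of counts in oocytes and 3.43% ± 1.21 (SD, n = 16) in embryos, with ranges of 0.874 to 1.69% and 2.04 to 6.56% (adjusted permutation p = 1.2e-05). Of 51 tested nuclear genes of oxidative phosphorylation 26 rose (51.0%) and 5 fell (9.80%), against 27.8% and 19.9% of all genes tested. Cox8a rose from 21.5, 42.6 and 57.1 to 144, 195 and 246 CPM (log2 fold change 1.95, SE 0.11, edgeR adjusted p = 2.48e-18), and Atp5f1 rose by 1.61 on the log2 scale. Uqcrc2, a core subunit of complex III, fell from 579, 727 and 910.1 to 21.5, 53.7 and 111 CPM (log2 fold change -4.09, SE 0.17, edgeR adjusted p = 3.56e-23). Neither Cox8a nor Uqcrc2 overlapped between the stages.

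Of 18 tested genes of glycolysis and pyruvate and lactate use, 8 rose (44.4%) and 2 fell (11.1%), against 27.8% and 19.9% of all genes tested. G6pdx, the entry enzyme of the pentose phosphate pathway, went from 36.3, 50.4 and 91.6 to 407, 726 and 1064 CPM (log2 fold change 3.29, SE 0.14, edgeR adjusted p = 9.51e-23), without overlap. Tpi1 (3.47), Pgk1 (1.54) and Ldhb (1.43) rose, and the lactate and pyruvate carrier gene Slc16a1 (-1.37) and Taldo1 (-2.79) fell.

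**Figure D3:**
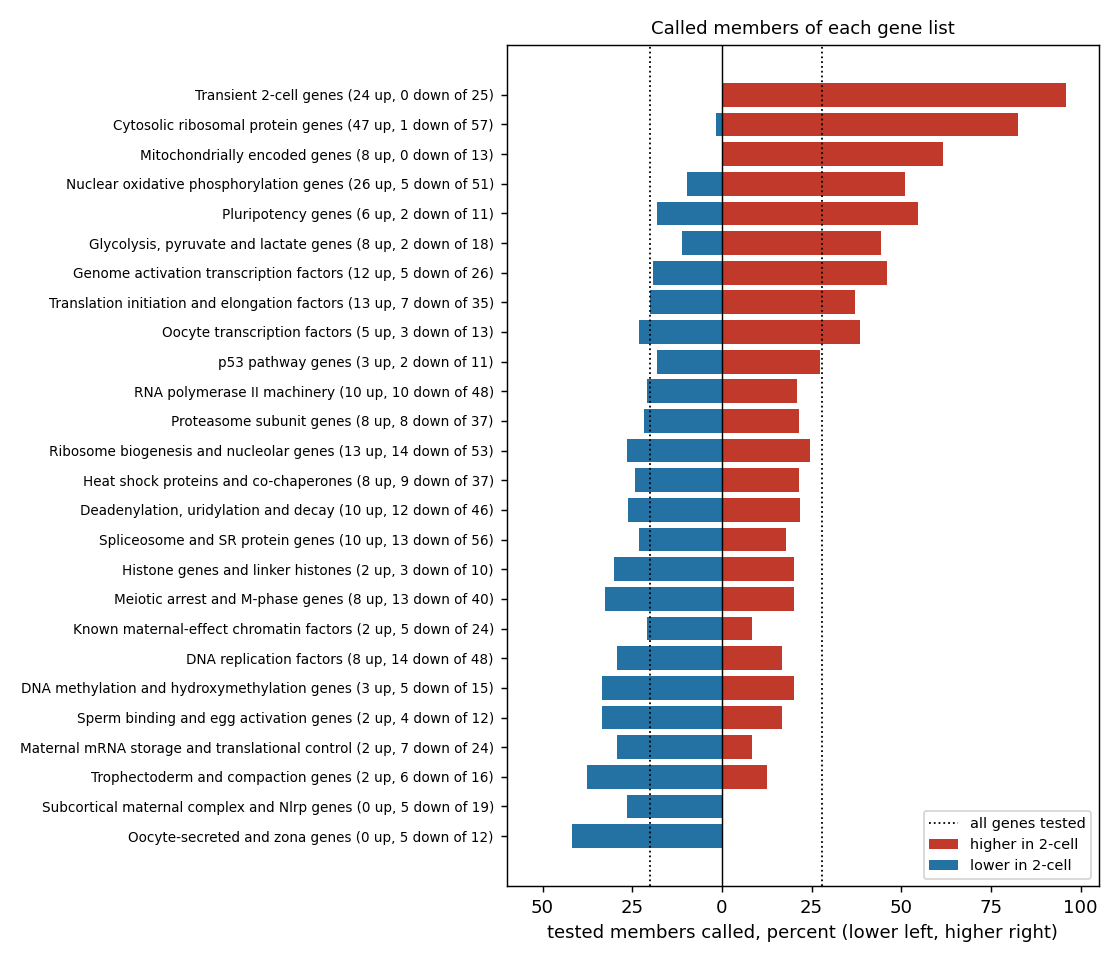
Share of the tested members of each gene list called higher (red, to the right) or lower (blue, to the left) in 2-cell embryos, in percent, for the 26 lists with at least 10 tested members; dotted lines mark the shares over all genes tested, 27.8% higher and 19.9% lower. The transient 2-cell and ribosomal protein lists extend furthest to the right, and the list of oocyte-secreted and zona genes furthest to the left.

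Dnmt1, the maintenance DNA methyltransferase, stood at 189, 269 and 369 CPM in oocytes and at 14.1, 28.3 and 43.1 CPM in embryos (log2 fold change -3.65, SE 0.14, edgeR adjusted p = 6.36e-24). Its partner gene Uhrf1 fell by 1.21 on the log2 scale, a call that ended with library totals (-0.87). Tet3, the dioxygenase that oxidizes methylcytosine in the zygote, fell from 200.03, 262 and 423 to 39.6, 66.4 and 159 CPM (log2 fold change -2.22, SE 0.16, edgeR adjusted p = 2.49e-15), whereas Tet1 (2.04) and Tet2 (2.06) rose from medians of 3.35 and 1.31 CPM to 15.1 and 9.18 CPM. Dnmt1 and Tet3 separated the stages, and Tet1 and Tet2 overlapped. Over the whole list 5 fell (33.3%) and 3 rose (20%) of 15 tested, against 19.9% and 27.8% of all genes tested. The rises included Dnmt3l (2.21). With library totals alone, however, 3 fell and 7 rose, and the median log2 fold change was above 0 under each scaling (0.13 to 0.47).

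H1foo, the linker histone of the oocyte, fell from 436, 776 and 1049 to 31.9, 82.9 and 196 CPM (log2 fold change -3.25, SE 0.21, edgeR adjusted p = 1.96e-16). The variant gene H2afz rose from 20.7, 27.7 and 46.9 to 61, 192 and 472 CPM (log2 fold change 2.56, SE 0.22, edgeR adjusted p = 2.92e-13). Each separated the stages. Slbp, which binds the 3′ stem-loop of replication-dependent histone mRNAs, fell by 1.57 on the log2 scale. Most of these histone mRNAs have no poly(A) tail, and 10 of the 32 genes of the histone list found in the table were tested. Of these 10, 3 fell (30%) and 2 rose (20%), against 19.9% and 27.8% of all genes tested. Of 24 tested maternal-effect chromatin factors 5 fell (20.8%) and 2 rose (8.33%), but with library totals alone 3 fell and 5 rose. Chd1, a remodeller of open chromatin, rose (2.30), Ezh2, the H3K27 methyltransferase, fell by 1.12, a call that ended with upper-quartile factors (-0.92) and library totals (-0.78), and Dppa3, which protects maternal methylation, was not called (0.68). Kdm4a itself stood at 4.6, 10.8 and 16.2 CPM in oocytes and at 5.09, 16.5 and 22.6 CPM in embryos. The stages overlapped widely and no change was called (log2 fold change 0.15, SE 0.17, edgeR adjusted p = 0.448).

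Of 48 tested DNA replication factors 14 fell (29.2%) and 8 rose (16.7%), against 19.9% and 27.8% of all genes tested. With upper-quartile factors, and also with library totals alone, 9 fell and 8 rose. The polymerase subunit gene Pole3 fell from 359.9, 503 and 691 to 35.4, 52.4 and 104 CPM (log2 fold change -3.48, SE 0.13, edgeR adjusted p = 2.86e-24), and the helicase gene Mcm4 fell (-2.48). Rpa2 (4.35), of the single-strand binding complex, and Ccne1 (2.64), cyclin E1, rose. Of 11 tested genes of the p53 pathway 3 rose (27.3%) and 2 fell (18.2%), near the 27.8% and 19.9% of all genes tested. Plk2 (2.28) and Sesn1 (2.67) were higher and Mdm2 (-1.29) was lower, though not called with library totals (-0.94).

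Of 25 pluripotency genes 11 were tested, 6 rose (54.5%) and 2 fell (18.2%), against 27.8% and 19.9% of all genes tested. Dppa5a rose from 7.3, 14.5 and 31.2 to 64.4, 111 and 170.3 CPM (log2 fold change 2.61, SE 0.18, edgeR adjusted p = 2.17e-16), without overlap. Zfp42 (5.63) and Pou5f1 (1.99) rose from means of 0.324 and 2.47 CPM to 22.5 and 12.3 CPM. Sall4, in contrast, fell from 143, 179 and 227 to 5.51, 14.6 and 38.3 CPM (log2 fold change -3.80, SE 0.16, edgeR adjusted p = 7.8e-23). Its stages did not overlap. Of 16 tested trophectoderm and compaction genes 6 fell (37.5%) and 2 rose (12.5%). The adhesion genes Ctnnb1 (-4.54), which encodes beta-catenin, Cdh1 (-3.08), E-cadherin, and Ctnna1 (-1.63) were among those lower. Of 4 tested primitive endoderm genes 2 fell: Lamb1, a laminin chain gene (-4.47), and the receptor gene Fgfr2 from 24.6, 42.3 and 61.4 to 1.71, 6.57 and 14 CPM, without overlap in either.

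In the lists of storage genes, decay genes, maternal-effect chromatin factors, RNA polymerase II, ribosome biogenesis, spliceosome, heat shock and histone genes, the median log2 fold change was below 0 with TMM factors and turned positive with library totals alone. With upper-quartile factors it also turned positive in all of them except the chromatin factors and the histones. For the oocyte-secreted, sperm binding, M-phase, subcortical maternal complex and replication lists it stayed below 0, and for the transient 2-cell, ribosomal protein, mitochondrial and oxidative phosphorylation lists above 0, under each of these scalings. No called gene named by the rule changed direction under any of the alternatives. Uncalled genes near 0 can change sign with the scaling. Oog3 was at -0.29 with TMM factors, while its mean was 9995 CPM in oocytes and 10285 CPM in embryos.

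Most markers of other cells that could accompany an egg or embryo were too low to be tested. Of 23 cumulus and granulosa markers 1, Cyp19a1, was tested, and it fell from 64.4, 91.4 and 115 to 3.26, 16.2 and 38 CPM (-2.71). Amh, Inhbb, Ptx3 and Ereg had no count in any of the 32 libraries, 11 of the 23 had none in any oocyte, and 4 had none in any embryo. Tnfaip6, of the expanding cumulus matrix, had no count in any oocyte and stood at 0.864, 9.48 and 29.3 CPM in embryos, with every embryo above every oocyte. The list summed to 64.4 to 117 CPM in oocytes and 26.4 to 82.7 CPM in embryos. Without Cyp19a1, a sum chosen after seeing the data, it was 0 to 6.45 CPM in oocytes and 8.92 to 63.8 CPM in embryos, so the rest of the list was higher in embryos. Of 19 sperm and spermatid markers Odf2 alone was tested and not called (0.59); the list summed to 32.2 to 62.6 CPM in oocytes and 69.6 to 178 CPM in embryos, 11 of the 19 had no count in any oocyte, and Prm3, Tnp2, Tssk1, Tssk2 and Acr had none in any library. Pgk2 was at 0 in all oocytes and at 0, 4.14 and 40.4 CPM in embryos. Without Odf2 the sperm markers summed to at most 6.76 CPM in oocytes and 6.10 to 53.2 CPM in embryos. None of the 10 blood markers was tested, and their sum reached 0.273 CPM in oocytes and 49.0 CPM in the highest embryo. Of the 10, 8 had no count in any oocyte and each had a count in at least 1 embryo; Lyz2 and Hba-a1 were at 0 in all oocytes and had a count in all embryos but 1, with medians of 2.34 and 1.52 CPM. Their part in the results was not tested.

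More genes were seen in embryos than in oocytes at equal depth. With each library thinned to 1000000 counts, 11339 ± 318 (SD, n = 16) genes had a count in oocytes and 15459 ± 597 (SD, n = 16) in embryos. The ranges of 10877 to 11919 and 14059 to 16537 did not overlap (adjusted permutation p = 1.2e-05 over 6 measures). Genes seen in at least 1 library numbered 18494 in oocytes and 26866 in embryos, of which 9073 were seen in embryos alone and 701 in oocytes alone. All 16 libraries shared 7116 genes in oocytes and 8497 in embryos. The 100 most abundant genes of each library took 36.4% ± 1.54 (SD, n = 16) in oocytes and 35.4% ± 2.17 (SD, n = 16) in embryos, a difference of -0.915 points that did not pass the test (permutation p = 0.180, adjusted p = 0.180). With mitochondrially encoded genes left out of the total it was -2.65 points (permutation p = 0.00057), and without embryo replicate 3 it was -0.565 points.

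**Figure D4:**
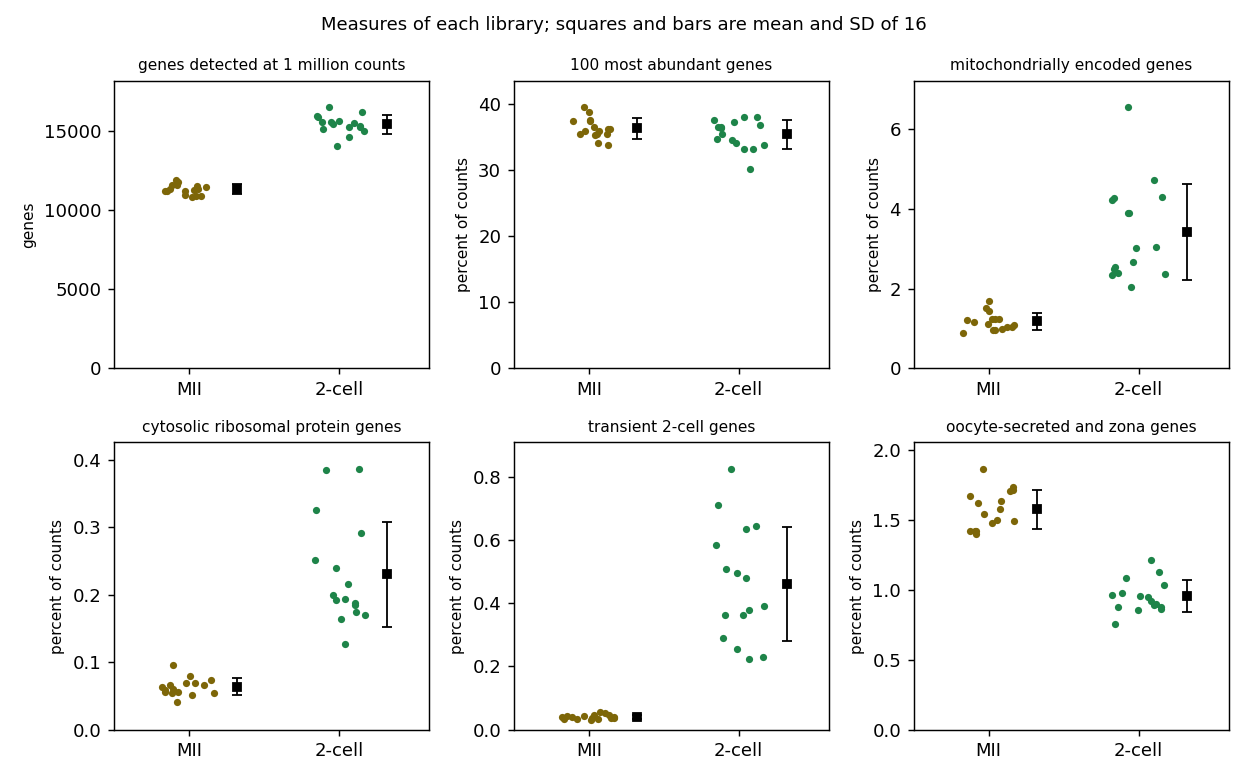
Genes detected at 1000000 counts and shares of counts in percent, for each of the 16 MII oocytes (brown) and 16 2-cell embryos (green), with mean and SD as a square and bar. The stages separate in 5 of the 6 panels and overlap for the 100 most abundant genes, and the embryos spread more than the oocytes in the mitochondrial, ribosomal protein and transient 2-cell panels.

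Genes that rose had shorter exonic sequence, a median of 2461 bases against 3415 for those that fell and 3504.5 for those not called. Genes annotated in a single interval made up 4.61%, 1.85% and 2.46% of the 3 sets. These are descriptions of the called sets and have no test.

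Embryos differed from each other more than oocytes did. Over 8433 genes with a mean of at least 5 CPM, the correlation of log levels across genes, which are not independent replicates, had a median of 0.970 between oocytes (0.949 to 0.976) and 0.896 between embryos (0.765 to 0.943), and 0.679 between the stages (0.551 to 0.774). The common biological coefficient of variation in edgeR was 0.248 within oocytes and 0.395 within embryos. The libraries of the embryos were also less deep, and the part of depth in this was not tested. The first principal component held 74.4% of the variance and separated the stages. Oocytes lay between -87.8 and -75.7 on it and embryos between 44.6 and 107.9, with replicate 11 nearest to the oocytes and replicate 10 farthest. Replicate 11 also had the fewest genes of all embryos (14059), the lowest share of transient 2-cell genes (0.222%) and the lowest share of ribosomal protein genes (0.126%), while replicate 10 had the highest transient 2-cell share (0.826%). Replicates 3 and 4 stood apart from the other embryos, with median correlations to their group of 0.844 and 0.860. Without them 2422 genes were higher and 1743 lower.

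Across the 16 embryos, the share of transient 2-cell genes was not shown to follow the loss of oocyte genes. Against the share of oocyte-secreted and zona genes, Pearson's r was -0.361 (permutation p = 0.172, adjusted p = 0.343 over 2 relations) and Spearman's rho -0.253 (permutation p = 0.342, adjusted p = 0.404). Without the 2 embryos farthest from the median, r was -0.353. With mean log2(CPM + 1) over each list in place of the shares, r was -0.503 (permutation p = 0.0475, adjusted p = 0.0951). Against the mitochondrial share r was 0.0311 (permutation p = 0.909, adjusted p = 0.909) and rho 0.224 (permutation p = 0.404, adjusted p = 0.404).

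The same step in the Kdm4a knockout libraries, which are separate oocytes and embryos, gave 2073 higher genes (24.7%) and 1646 lower (19.6%) of 8382 tested. Of the wildtype calls 1740 higher and 1399 lower genes were called the same way and 0 the opposite way. That was 72.2% of the wildtype and 83.9% of the knockout calls for higher genes, and 81.1% and 85.0% for lower genes. Knockout MII replicate 15 had the fewest genes with a count of the knockout oocytes, 11139 against 12634 in the next lowest. Without it, 1855 higher and 1468 lower genes of the wildtype calls were called the same way. Knockout 2-cell replicate 13, with 528377 counts against a group median of 2077383, stayed in both knockout comparisons. Plat (-6.80 in knockout), Bub1b (-6.26), Zfp352 (10.02) and Gabpa (6.79) moved the same way in both genotypes. The difference between the genotypes was not tested here.

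Levels in the wildtype 4-cell and 8-cell embryos of the study (n = 16 each) show what followed for the named genes, as medians with no test, since the 2-cell libraries are shared; the genes given here were picked after their values were seen. Some maternal messages were lower still. Plat had medians of 1.94 and 0.988 CPM at 4 and 8 cells, Gdf9 of 3.23 and 0.958 CPM, and Rgs2 of 6.24 and 1.28 CPM. Others that fell were high again at 4 cells: Ncl went from 646 in oocytes to 250.2, 2222 and 2286 CPM, Eif3e from 385 to 55.8, 886 and 1344 CPM, and Papola from 382 to 96.1, 691 and 794 CPM. These genes of nucleolus, translation and polyadenylation were lowest at the 2-cell stage of the 4 stages.

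Of the genes that rose, Zscan4d had medians of 0.583 and 0 CPM at 4 and 8 cells, Zfp352 of 1.72 and 0 CPM, and G6pdx of 17.8 and 8.08 CPM. Their levels were highest at the 2-cell stage. Trim43b went from 349 to 2401 and 5196 CPM, Gcsh from 234 to 7921 and 8102 CPM, and Obox6 from 124 to 1981 and 1984 CPM. Promoters shown above belong to genes of both kinds, Zfp352 and Zscan4f being highest at 2 cells and Trim43a at 8 cells, with medians of 260.4, 2298 and 5306 CPM at 2, 4 and 8 cells. Ubtfl1 was highest at 4 cells, with medians of 113, 222 and 185 CPM at the same stages.

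**Figure D5:**
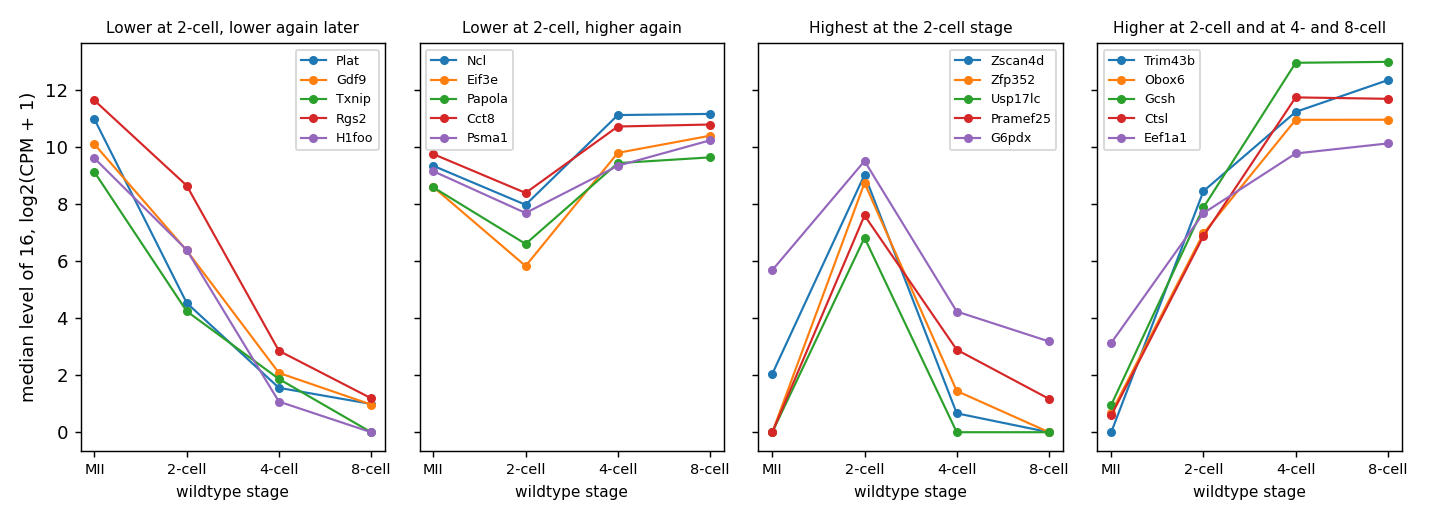
Median level of 16 wildtype libraries as log2(CPM + 1) at MII, 2-cell, 4-cell and 8-cell stages, for 20 genes in 4 panels chosen after their values were seen. Plat and Gdf9 are lower at each later stage, Ncl and Eif3e are lowest at the 2-cell stage, Zscan4d and Zfp352 are highest there, and Trim43b and Gcsh are higher at the later stages.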

How the data were processed

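Single oocytes and embryos were sequenced by SMART-Seq. The deposited table holds estimated counts per gene, and 30.7% of the non-zero values of the 32 libraries were not whole, as when reads of several places are split. Per the submitters' processing notes the authors used Trimmomatic 0.32, STAR 2.5.1a on mm10 and featureCounts 1.5.1; gene models are GENCODE M18 per the deposited file's name, and no source used here gives the counting's strand setting. The deposited table's gene length column was used to describe genes.

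Expected counts were rounded, and wildtype MII and 2-cell libraries (16 each) were compared with edgeR 4.0.16 under R 4.3.3 (quasi-likelihood, robust, TMM factors, filterByExpr). Called genes had a Benjamini-Hochberg adjusted p under 0.05 and a log2 fold change of 1 or more in size. Alternatives used DESeq2 1.42.0, limma 3.58.1 (voom), other scalings and filters, subsets of libraries, and each library left out. For shares of counts, two-sided permutation tests drew 100000 resamples (scipy 1.17.1). The statistics were tested on simulated data. No pair of libraries within a stage agreed within sampling noise (chi-square of at least 4.75 per gene). Replicate numbers did not pair the samples.

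The members of the comparison and the 30 gene lists were chosen with earlier results of these data known. Named genes are Kdm4a, the 12 called genes each way that changed most, counting those whose mean reached 100 CPM at the higher stage and whose name is not that of a clone, the 6 most abundant of each stage, and up to 4 called members each way per list by mean CPM, or the 2 most abundant where fewer than 2 were called. Other list members are named to describe a list and were picked after their values were seen. Promoters come from RefSeq on GRCm38.p6 and 3′ untranslated regions from GENCODE M21. Values of some list members are not reported here.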

Additional observations from a re-analysis of the deposited data

How the results depend on the processing

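The counts of called genes moved with the filter on low counts. Without a filter, edgeR tested 29676 genes and gave 11332 higher and 2781 lower genes (12416 higher by adjusted p alone). With at least 10 CPM in 16 libraries it gave 1399 higher and 1217 lower genes among 6050. DESeq2, which differs from the report's test in both method and filter, gave 7640 higher genes of the same 29676 (8989 by adjusted p alone). Of the 2409 and 1726 genes called in the report, DESeq2 also called 2401 and 1726. Leaving out each library in turn gave 2412 to 2559 higher and 1723 to 1767 lower genes, and by adjusted p alone 3643 to 3780 and 3067 to 3137. The replicate block gave 2390 higher and 1816 lower genes; same-numbered libraries deviated together with correlations of -0.0309 to 0.148, above 0.1 in 1 of 16 pairs, and 2 of 16 libraries correlated best with their own number. A minimum fold built into the test (glmTreat) gave 1954 and 1339, and all 4 groups of both stages in one fit gave 3267 and 1968. Replicates 1 to 8 alone gave 2367 and 1745, and replicates 9 to 16 alone 2282 and 1701. The share of the 100 most abundant genes differed by -0.915 points (2-cell minus MII, permutation p = 0.180), by -2.65 points with mitochondrially encoded genes left out of the total (p = 0.00057), and in the other direction, by 0.181 points, for the 20 most abundant genes (p = 0.638); leaving out each library gave -1.09 to -0.565 points, the last without embryo replicate 3. The cause was not tested. Leaving out 2-cell replicates 3 and 4 was chosen after seeing the data, as were the marker sums without their most abundant gene. Of the results of named genes under the alternatives, 9614 were unchanged in call, 115 lost the call and 0 were called in the other direction. Uncalled genes with a log2 fold change near 0 could change sign. Depth limits genes near 1 CPM.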
